A study of Mus musculus with 10 samples.

Results

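The 10 genes of the BMP (bone morphogenetic protein) pathway described here were chosen by symbol: the ligand gene Bmp4, the target genes Id1, Id2, Id3, Id4, Msx1 and Msx2, and the inhibitor genes Smad6, Smad7 and Bambi. All 10 were found among the 36066 genes of the expression table, and all 10 passed the filter on low values. RNA was sequenced from 10 libraries, 2 in each of 5 groups of C57BL6 mouse cells. ESCs are a female embryonic stem cell line from fertilized embryos, and pESCs are a parthenogenetic line from oocytes activated without sperm, so that all of their chromosomes are maternal. ESC-PGCLCs and pESC-PGCLCs are the primordial germ cell-like cells made from them, and PGCs are primordial germ cells sorted from embryos, for which the labels give no embryonic day. Both stem cell lines carried an Actin-GFP reporter and were grown on feeder fibroblasts, then turned into epiblast-like cells with activin A and bFGF. They were then aggregated for 4 days with 500 ng/mL BMP4, together with LIF, SCF and EGF, and sorted for the surface proteins SSEA1 and CD61. The added BMP4 was protein, so the Bmp4 values below are the cells' own transcript. Each kind of stem cell is given as a cell line. The study describes its RNA-seq as 2 biological replicates, but neither it nor the labels say whether these were separate cultures. The p-values therefore measure the spread between these libraries, which may not reach that between separate cultures.

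BMP ligands bind a complex of type I and type II receptors at the cell surface. The receptors phosphorylate SMAD1, SMAD5 and SMAD9, which enter the nucleus with SMAD4 and switch on targets such as the Id and Msx genes. Id proteins bind E proteins, a group of basic helix-loop-helix factors, and keep them off DNA. SMAD6 and SMAD7 are intracellular inhibitors, and BAMBI is a decoy receptor without a kinase domain. All of these inhibitors can be induced by the signal they limit. In the mouse embryo BMP4 from the extraembryonic ectoderm starts the germ line in the epiblast, which is why the recombinant protein is used to make PGCLCs.

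A letter pattern found at elements bound by SMAD1 and SMAD5, GGCGCC, was searched on both strands in RefSeq windows (GRCm38.p6) from 250 bases before to 50 bases after each gene start, and 7 of the 10 genes have such a window. Windows for Id1, Smad7 and Bambi were not used here. In Id3 and Msx2 all 250 bases before the RefSeq start lie in annotated exons, and in Id2 161 of them do. The windows of Id2, Id3 and Msx2 lie inside the GENCODE spans, so sequence upstream of those spans was not searched. The pattern occurs in 11.9% of all 32851 windows and, among the 7 genes, once each in Id2 and Id4. The pattern followed by 5 bases and GTCT occurs in 24 windows (0.0731%) and in none of the 7. The sequences are shown for these 2 targets because they carry the pattern, which is in capitals, 5′ to 3′ on the gene's strand. For Id2, 89 bases outside annotated exons on the minus strand (chr12:25096254-25096342) are given, and the pattern lies 231 bases before the RefSeq start. This Id2 stretch lies inside the GENCODE span of the gene (chr12:25093799-25097140), not upstream of it. For Id4, 250 bases on the plus strand (chr13:48260866-48261115) are given, and the pattern lies 148 bases before the RefSeq start.
Id2: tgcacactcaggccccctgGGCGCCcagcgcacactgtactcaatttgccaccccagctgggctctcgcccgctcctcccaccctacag
Id4: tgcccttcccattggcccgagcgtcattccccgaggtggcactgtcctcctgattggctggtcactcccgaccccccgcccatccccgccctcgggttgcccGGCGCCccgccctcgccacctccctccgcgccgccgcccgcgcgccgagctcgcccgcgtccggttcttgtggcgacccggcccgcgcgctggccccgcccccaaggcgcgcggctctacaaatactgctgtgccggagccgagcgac
The Id4 window is rich in G and C (73.3%, against a median of 52.7% over all windows), with 39 CpG dinucleotides against a median of 7. A match describes the letters and was not tested as a binding site.

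The deposited unit is TPM, in which the reads of a gene are divided by its length and every library is brought to an equal total, so levels of different genes can be compared. Recovered reads on genes ranged from 6779838 to 18572901 per library, so 3 reads on a gene of median length equal 0.116 to 0.338 TPM. Fold changes are differences of log2(TPM + 1), which understates the change of genes with low levels, and p-values are those of limma with Benjamini-Hochberg adjustment over 27259 genes. A gene was called higher or lower where the adjusted p was under 0.05 and the change 2-fold or more. A two-sided exact permutation test of 2 against 2 libraries cannot go below p = 0.333, so the calls rest on limma's pooled variance. The 8 germ cell markers were all at 1 TPM or more in every group on average, with a summed level of 7647 to 7882 TPM in ESC-PGCLCs, 5981 to 6328 TPM in pESC-PGCLCs and 5437 to 6691 TPM in PGCs, against 390 to 915 TPM in the stem cells. The 8 naive pluripotency markers summed to 675 to 1130 TPM in the stem cells and to 115 to 166 TPM in the other groups. Fibroblast and feeder markers summed to 34.2 to 70.2 TPM in all libraries, with Vim and Fn1 the highest in every group. Col1a2, Postn and Prrx1 were at 0 in ESCs, Prrx1 and Acta2 at 0 in pESCs, and Thy1 at 0 in ESC-PGCLCs and PGCs. Means of Col3a1 were 0.0055 TPM in ESCs, 0.064 in pESCs, 2.54 in ESC-PGCLCs, 4.32 in pESC-PGCLCs and 6.79 in PGCs. Of the 9 tested, 2 were called higher and 0 lower in PGCLCs of each line, beside 15.3% and 20.8% of all genes called higher. Gonadal somatic markers summed to 4.83 to 5.35 TPM in the stem cells, 18.5 to 23.7 in ESC-PGCLCs, 40.6 to 47.8 in pESC-PGCLCs and 81.9 to 88.6 in PGCs, and blood markers (mostly haemoglobin genes) to at most 4.01, to 487 to 556, to 2869 to 3397 and to 1960 to 2147 TPM. Endoderm and trophoblast markers summed to at most 14.3 TPM in the stem cells and ESC-PGCLCs, and to 42.7 to 51.8 TPM in pESC-PGCLCs and PGCs. Mesoderm markers summed to 1.36 to 8.85 TPM in all libraries. The part of such cells in the differences below was not tested, and in bulk RNA fewer expressing cells and less RNA per cell cannot be told apart.

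From stem cells to PGCLCs most of the 10 genes rose in both lines. In ESC-PGCLCs against ESCs, 7 of the 10 genes were called higher (Id1, Id2, Id4, Smad6, Smad7, Msx1 and Msx2) and 0 lower, beside 29.8% of all tested genes called, 15.3% higher and 14.5% lower. In pESC-PGCLCs against pESCs, 8 were called higher (Bmp4, Id1, Id2, Id3, Id4, Smad6, Msx1 and Msx2) and 0 lower, beside 27.6% of all genes called, 20.8% higher and 6.8% lower. Msx1 is in both counts, although it passed the filter on low values through the groups where it was high. The median change of the 10 was 2.35 on the log2 scale in the ESC line and 2.40 in the pESC line, beside 0.049 and 0.22 for all tested genes. The libraries of 9 of the 10 genes did not overlap between PGCLCs and their stem cells in either line, all of them higher in PGCLCs, as for 38.4% of all genes in the ESC line and 50% in the pESC line (with 32.5% and 19.1% of all genes lower without overlap). Bambi was the exception in the ESC line and Smad7 in the pESC line. How all genes divide into higher and lower depends on the scaling, except in the ESC line (51.2% of calls higher, 50.2% with quantile normalization and 51.8% with centring on the median gene). In the pESC line these shares were 75.4%, 52.3% and 31.3%, and the median change of all genes moved from 0.22 to 0.0257 and -0.51. The shares were 21.1%, 53.3% and 84.3% in pESCs against ESCs, 77%, 56.9% and 43.6% in pESC-PGCLCs against ESC-PGCLCs, 86.4%, 49.3% and 26.2% in PGCs against ESC-PGCLCs, 56.4%, 33.4% and 26.3% in PGCs against pESC-PGCLCs, and 81.5%, 58.1% and 29.8% for the difference between the lines. None of the calls of the 10 genes turned its direction under either scaling.

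**Figure D1:**
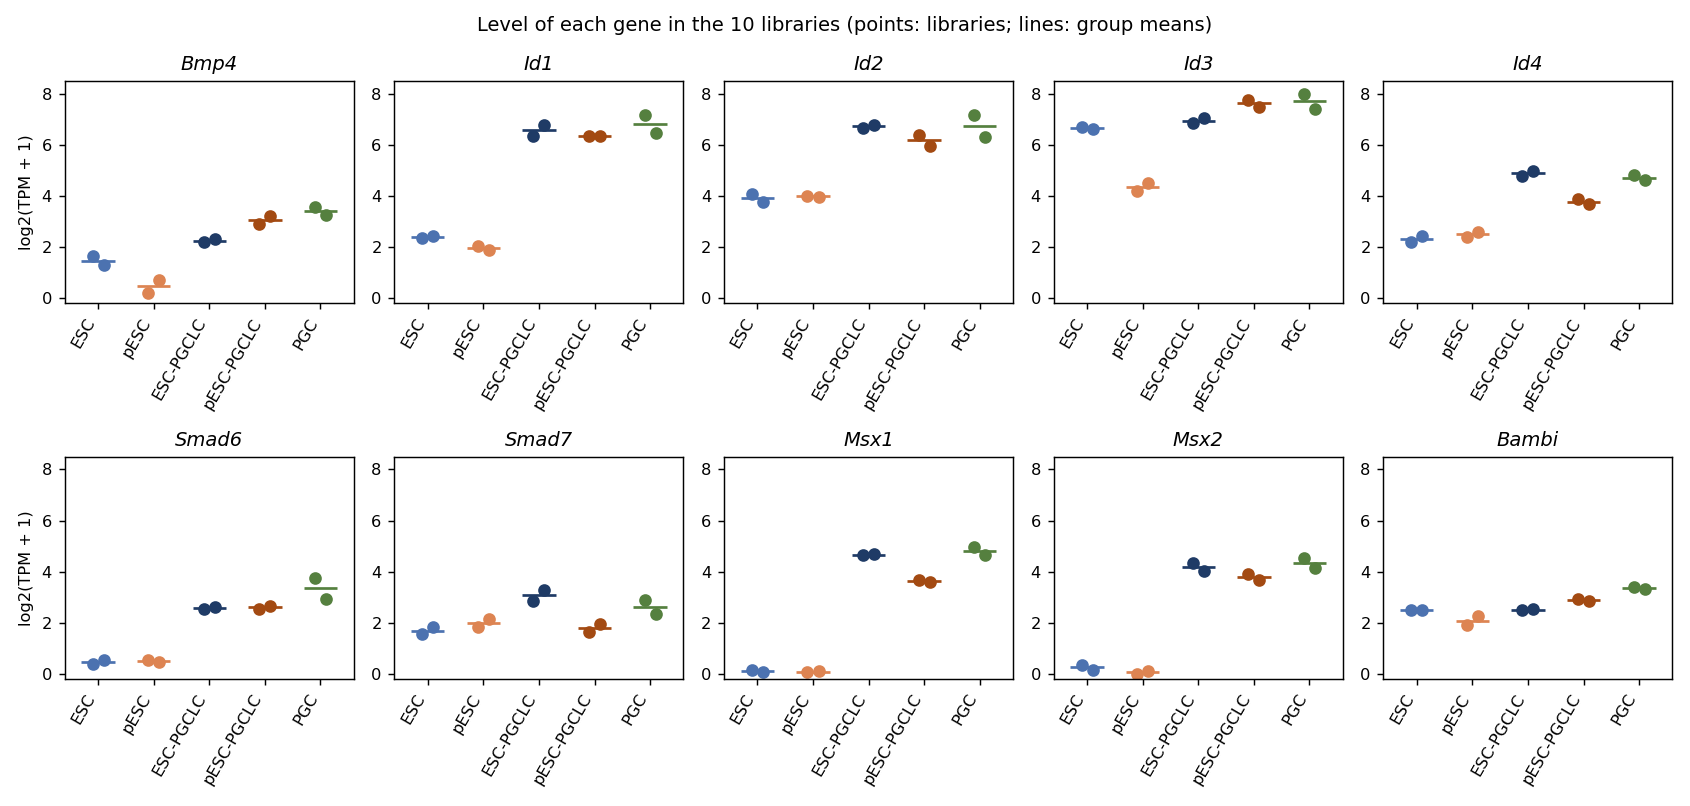
Level of each of the 10 genes as log2(TPM + 1), with 1 panel per gene, 1 point per library (2 per group) and a line at each group mean. Msx1 and Msx2 lie near 0 in all 4 stem cell libraries and between 10.9 and 30.1 TPM in the 6 PGCLC and PGC libraries, whereas Id3 is low only in the 2 pESC libraries.

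Bmp4 (chr14:46383520-46390669) encodes the ligand itself. It was at 2.12 and 1.42 TPM in ESCs (44 and 38 reads), 0.152 and 0.616 in pESCs (3 and 12 reads), 3.55 and 3.93 in ESC-PGCLCs, 6.53 and 8.13 in pESC-PGCLCs, and 10.9 and 8.47 in PGCs. No 2 groups overlapped, and the order of the means was PGCs, pESC-PGCLCs, ESC-PGCLCs, ESCs and pESCs. The transcript rose 19.3-fold by recovered reads in the pESC line (95% counting interval 11.5 to 34.9), which was 2.60 ± 0.238 (SE) on the log2(TPM + 1) scale with an adjusted p of 9.52e-05 (limma). In the ESC line the mean was 2.11 times as high in PGCLCs as in stem cells, a difference of 0.79 on the log2(TPM + 1) scale (adjusted p = 0.0274, limma) that is under 2-fold on that scale and was not called. With voom on recovered reads this difference was 1.07 (adjusted p = 0.0406, voom), which passes the threshold. Exons of Bmp4 overlap the opposite-strand gene Gm15217, and reads of the 2 cannot be told apart where counting did not use strand.

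The change in Bmp4 was larger in the pESC line by 1.82 ± 0.337 on the log2 scale (adjusted p = 0.00707, limma). Of all genes, 15.5% were called in this direction and 3.53% in the other when the 2 changes were compared. This difference has a part in each kind of cell. Among stem cells the pESC libraries lay below the ESC libraries without a call (adjusted p = 0.0753, limma), and among PGCLCs the pESC-derived libraries lay above the ESC-derived ones by less than 2-fold on the fitted scale (0.81, adjusted p = 0.0438, limma).

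Id1 (chr2:152736251-152737410), an inhibitor of E proteins and a widely used readout of BMP signaling, was at 4.02 and 4.42 TPM in ESCs and at 3.14 and 2.69 in pESCs. It reached 81.4 and 109 TPM in ESC-PGCLCs, 80.4 and 79.9 in pESC-PGCLCs, and 141 and 86.7 in PGCs. All 6 PGCLC and PGC libraries lay far above all 4 stem cell libraries, with overlap only between PGCs and ESC-PGCLCs. The mean in ESC-PGCLCs was 22.6 times that in ESCs (log2 change 4.19 ± 0.240, adjusted p = 8.32e-06, limma). In the pESC line it was 27.5 times as high (4.38 ± 0.240, adjusted p = 1.08e-05, limma). The changes in the 2 lines differed by 0.19 ± 0.339 (adjusted p = 0.753, limma), which is within the error.

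Id2 (chr12:25093799-25097140), a second E protein inhibitor, was at 15.9 and 12.5 TPM in ESCs and at 15.0 and 14.6 in pESCs. It was at 101 and 110 TPM in ESC-PGCLCs, 82.1 and 61.5 in pESC-PGCLCs, and 143 and 78.1 in PGCs. The 2 kinds of stem cells overlapped, and the PGC libraries spanned those of ESC-PGCLCs. The rise was 2.82 ± 0.279 on the log2 scale in the ESC line (adjusted p = 0.000105, limma) and 2.19 ± 0.279 in the pESC line (adjusted p = 0.000464, limma), and the difference between them (-0.63 ± 0.394) did not pass the test (adjusted p = 0.313, limma).

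Id3 (chr4:136143497-136145755), the most abundant of the 4 Id transcripts in every library, behaved differently in the 2 lines. In ESCs it was already at 104 and 97.0 TPM, whereas pESCs had 17.2 and 21.4 TPM. In PGCLCs it was at 113 and 133 TPM from ESCs and at 218 and 176 from pESCs, and PGCs had 255 and 168. The 2 pESC libraries were thus the lowest of the 10, and the pESC-PGCLC libraries lay within the range of PGCs. Id3 was the only 1 of the 10 genes called between pESCs and ESCs, lower by 5.21 times on the means (log2 change -2.33 ± 0.225, adjusted p = 0.00863, limma), in a comparison where 0.781% of all genes were called, 0.616% lower and 0.165% higher. This call is lost without ESC replicate 1 (-2.28, adjusted p = 0.0795), ESC replicate 2 (-2.38, adjusted p = 0.0515) or pESC replicate 1 (-2.18, adjusted p = 0.0563) in limma, and in a fit of these 2 groups alone (adjusted p = 0.163).

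In the pESC line Id3 rose 10.2-fold to PGCLCs (log2 change 3.29 ± 0.225, adjusted p = 2.84e-05, limma). In the ESC line PGCLCs were at 1.23 times the level of ESCs (log2 difference 0.29 ± 0.225, adjusted p = 0.339, limma). The difference between these changes, 2.998 ± 0.318, was the largest of the 10 genes (adjusted p = 0.000769, limma) and passed the threshold with any 1 library left out and under every other alternative.

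Id4 (chr13:48261228-48266026), best known from the nervous system and from spermatogonia, had the lowest levels of the Id genes in all PGCLC and PGC libraries. It was at 3.61 and 4.37 TPM in ESCs, 4.29 and 4.95 in pESCs, 26.8 and 30.6 in ESC-PGCLCs, 13.6 and 11.7 in pESC-PGCLCs, and 26.9 and 23.7 in PGCs. ESC-PGCLCs and PGCs overlapped, and pESC-PGCLCs lay below both. The rise in the ESC line was 2.57 ± 0.163 on the log2 scale (adjusted p = 1.23e-05, limma). The rise in the pESC line was 1.28 ± 0.163 (adjusted p = 0.000456, limma), which falls under 2-fold with quantile normalization (0.61) or centring on the median gene (0.55). Between the 2 kinds of PGCLCs, Id4 was lower in pESC-PGCLCs by 1.12 ± 0.163 (adjusted p = 0.00218, limma), and the changes in the 2 lines differed by -1.30 ± 0.230 (adjusted p = 0.00589, limma). Id4 exons overlap the opposite-strand genes A330033J07Rik and Gm49291.

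Summed over the 4 genes, Id transcripts were at 127 and 118 TPM in ESCs and at 39.6 and 43.6 in pESCs. The sums were 322 and 383 TPM in ESC-PGCLCs, 394 and 329 in pESC-PGCLCs, and 566 and 356 in PGCs. The sums of these 3 germ cell groups overlapped. Id3 made up 81.6% and 82.0% of Id transcripts in ESCs, 43.4% and 49.0% in pESCs, 35.2% and 34.8% in ESC-PGCLCs, 55.3% and 53.5% in pESC-PGCLCs, and 45.1% and 47.1% in PGCs. Id1 took 3.16% to 7.93% in the stem cells and 20.4% to 28.5% in the other groups. The shares of Id3 did not overlap between ESC-PGCLCs, pESC-PGCLCs and PGCs, with PGCs between the other two.

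**Figure D2:**
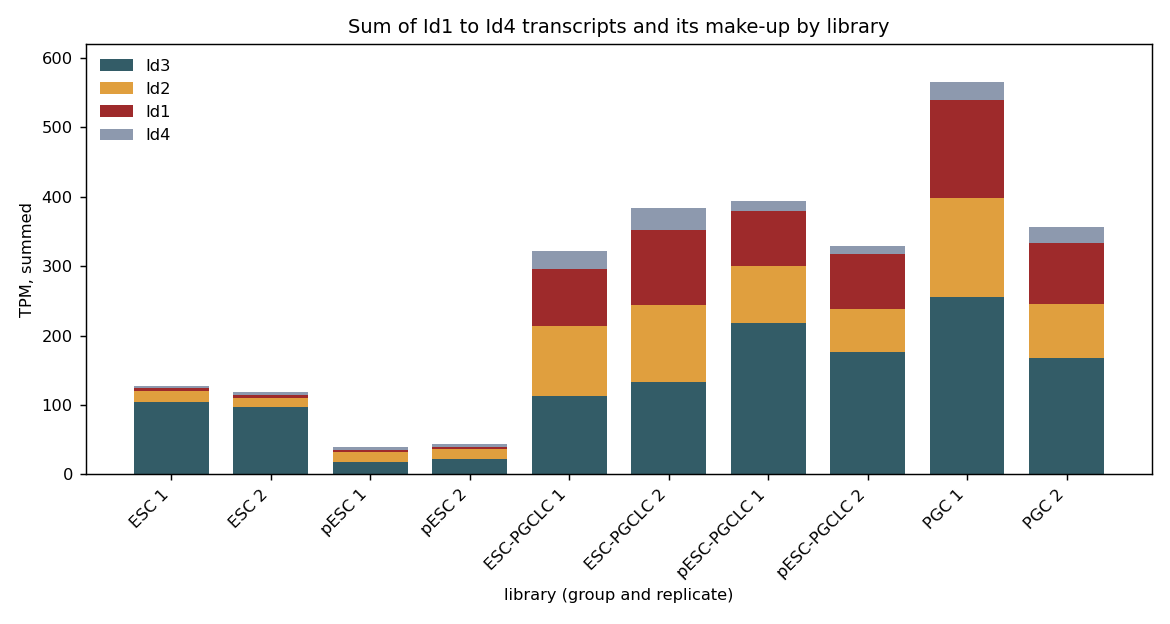
Sum of Id1 to Id4 transcripts in TPM for each of the 10 libraries (x axis), with each bar split into Id3, Id2, Id1 and Id4. The sum is 39.6 to 127 TPM in stem cells and 322 to 566 TPM elsewhere, and Id3 fills most of the bar in ESCs and over 50% of it in pESC-PGCLCs.

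The E proteins that Id proteins bind were measured beside them. Tcf3, Tcf4 and Tcf12 summed to 6.26 and 7.38 TPM in ESCs, 4.85 and 7.46 in pESCs, 33.2 and 38.1 in ESC-PGCLCs, 31.2 and 31.4 in pESC-PGCLCs, and 70.2 and 56.9 in PGCs. Both sides of the pair were therefore higher in the germ cell groups, and the ratio of the Id sum to the E protein sum was 20.3 and 16.0 in ESCs, 8.16 and 5.85 in pESCs, 9.70 and 10.1 in ESC-PGCLCs, 12.6 and 10.5 in pESC-PGCLCs, and 8.06 and 6.26 in PGCs. Tcf3 and Tcf12 were called higher in PGCLCs of both lines (log2 changes 1.96 to 2.53).

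Msx1 (chr5:37820485-37824583) and Msx2 (chr13:53466884-53473074), homeobox genes that respond to BMP in many embryonic tissues, were near the floor of detection in stem cells and clearly present in all PGCLC and PGC libraries. Msx1 passed the filter on low values through the groups where it was high, whereas Msx2 also reached the filter level in both ESC libraries. Msx1 had 3 and 2 reads in ESCs (0.105 and 0.0543 TPM) and 1 and 2 reads in pESCs (0.0367 and 0.0745 TPM). It was at 23.8 and 25.1 TPM in ESC-PGCLCs, 11.8 and 10.9 in pESC-PGCLCs, and 30.1 and 23.9 in PGCs. The pESC-PGCLC libraries thus lay below the other 4, and ESC-PGCLCs and PGCs overlapped. The ratio of recovered reads, scaled for depth, was 318 in the ESC line (95% counting interval 136 to 984) and 204 in the pESC line (69.5 to 993). The fitted changes were 4.56 ± 0.160 (adjusted p = 1.75e-06, limma) and 3.55 ± 0.160 (adjusted p = 5.70e-06, limma).

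Msx1 was lower in pESC-PGCLCs than in ESC-PGCLCs by 1.04 ± 0.160 on the log2 scale (adjusted p = 0.00292, limma), and without pESC-PGCLC replicate 2 the value was -0.99, below 2-fold. The changes in the 2 lines differed by -1.01 ± 0.227 (adjusted p = 0.0161, limma). With so few reads in the stem cells this difference depends on the scale: a pseudocount of 0.1 gave -0.89 (adjusted p = 0.118), voom on recovered reads gave -1.01 (adjusted p = 0.476), and it fell below the threshold without ESC replicate 2 (-0.98), pESC replicate 2 (-0.98), ESC-PGCLC replicate 2 (-0.97) or pESC-PGCLC replicate 2 (-0.96).

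Msx2 had 8 and 4 reads in ESCs (0.265 and 0.103 TPM) and 0 and 2 reads in pESCs (0 and 0.0704 TPM). It was at 19.0 and 15.1 TPM in ESC-PGCLCs, 13.9 and 11.7 in pESC-PGCLCs, and 22.1 and 16.8 in PGCs. Here too pESC-PGCLCs had the lowest level of the germ cell groups. The depth-scaled read ratio was 99.2 in the ESC line (56.3 to 193) and 365 in the pESC line (101 to 3017), with fitted changes of 3.93 ± 0.200 (adjusted p = 5.21e-06, limma) and 3.73 ± 0.200 (adjusted p = 9.85e-06, limma). Between the 2 kinds of PGCLCs the log2 difference was -0.38 ± 0.200 and did not pass (adjusted p = 0.221, limma).

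Smad6 (chr9:63953076-64022059), the inhibitor that acts mainly on BMP receptors and SMADs, was at 0.305 and 0.446 TPM in ESCs (9 and 17 reads) and at 0.462 and 0.360 in pESCs (13 and 10 reads). It was at 4.85 and 5.14 TPM in ESC-PGCLCs, 4.84 and 5.34 in pESC-PGCLCs, and 12.5 and 6.60 in PGCs. The 2 kinds of stem cells overlapped, as did the 2 kinds of PGCLCs, and both PGC libraries lay above all others. By recovered reads the rise was 12.96-fold in the ESC line (8.49 to 20.5) and 12.4-fold in the pESC line (8.11 to 19.9). The fitted changes were 2.13 ± 0.263 (adjusted p = 0.000329, limma) and 2.11 ± 0.263 (adjusted p = 0.000415, limma), and they differed by -0.02 ± 0.371.

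Smad7 (chr18:75367529-75395935), which also limits TGF-β and activin signals, separated the lines. It was at 1.90 and 2.51 TPM in ESCs, 2.52 and 3.39 in pESCs, 6.23 and 8.64 in ESC-PGCLCs, 2.13 and 2.89 in pESC-PGCLCs, and 6.35 and 4.09 in PGCs. The pESC-PGCLC libraries overlapped those of both stem cells, and the ESC-PGCLC libraries overlapped those of PGCs. Smad7 rose in the ESC line, to 3.37 times the mean of ESCs (log2 change 1.39 ± 0.258, adjusted p = 0.0028, limma). In the pESC line the difference was -0.17 ± 0.258 (adjusted p = 0.634, limma).

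Between the 2 kinds of PGCLCs, Smad7 was lower in pESC-PGCLCs by 1.26 ± 0.258 on the log2 scale (adjusted p = 0.0104, limma). Without ESC-PGCLC replicate 2 this was -1.05 (adjusted p = 0.0704), and without pESC-PGCLC replicate 1 it was -1.10 (adjusted p = 0.075). In a fit of these 2 groups alone the adjusted p was 0.0562. The changes in the 2 lines differed by -1.56 ± 0.365 (adjusted p = 0.0189, limma), with adjusted p between 0.0503 and 0.0829 without ESC replicate 1, pESC replicate 2, ESC-PGCLC replicate 2 or pESC-PGCLC replicate 1.

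Bambi (chr18:3507923-3516404), the decoy receptor, was called in 0 of the 7 comparisons. It was at 4.59 and 4.66 TPM in ESCs, 2.71 and 3.73 in pESCs, 4.59 and 4.78 in ESC-PGCLCs, 6.52 and 6.22 in pESC-PGCLCs, and 9.49 and 8.90 in PGCs. ESCs and ESC-PGCLCs overlapped, and the other groups were separate from each other. Its difference between pESC-PGCLCs and pESCs was 0.82 (adjusted p = 0.00428, limma) and that between PGCs and ESC-PGCLCs 0.84 (adjusted p = 0.0078, limma), both under 2-fold.

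**Figure D3:**
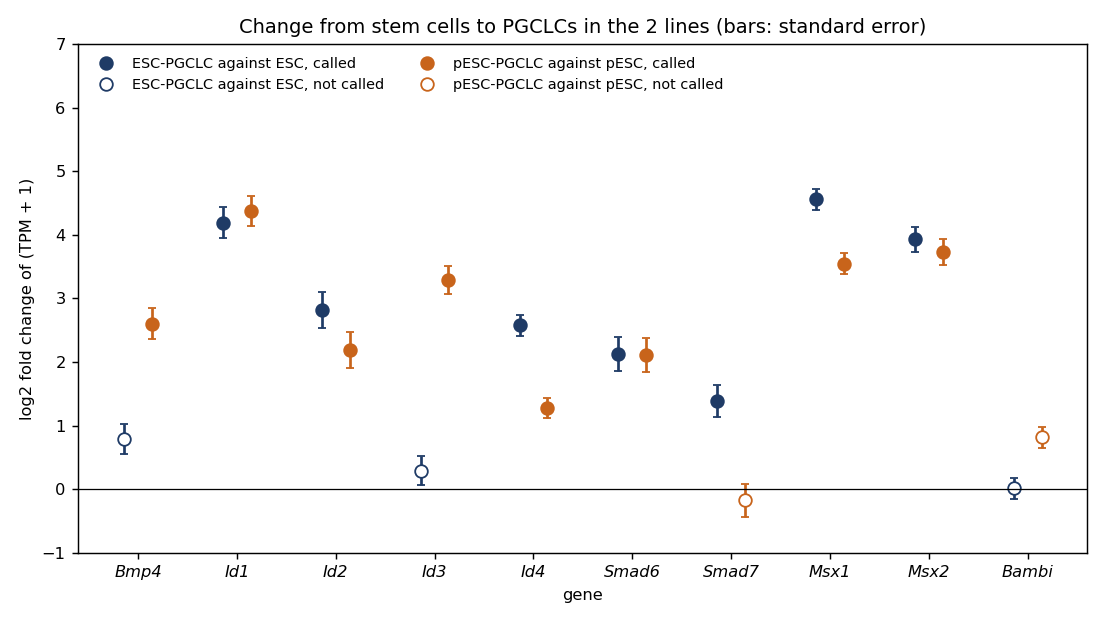
Change in log2(TPM + 1) from stem cells to PGCLCs for each of the 10 genes (x axis), in the ESC line (blue) and the pESC line (orange), with bars for the standard error and filled points for called genes. The error bars of the 2 lines overlap for Id1, Smad6 and Msx2, and the points are furthest apart for Id3, at 0.29 and 3.29.

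The 2 kinds of PGCLCs differ in origin, maternal-only or fertilized, but each origin is given as a cell line. Origin therefore cannot be told apart here from other differences between the lines or between their inductions. Blood and gonadal somatic marker sums also differed between the 2 kinds, as given above. Id4, Smad7 and Msx1 were called lower in pESC-PGCLCs and 0 genes higher, so 3 of the 10 were called, beside 13.4% of all genes called, 10.3% higher and 3.08% lower. The libraries did not overlap for 3 genes higher (Bmp4, Id3 and Bambi) and 6 lower (Id1, Id2, Id4, Smad7, Msx1 and Msx2), as for 41.8% and 17.9% of all genes. The Id3 difference was 0.67 ± 0.225 (adjusted p = 0.0685, limma), with Id3 higher in pESC-PGCLCs where Id4 was lower.

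Set beside the changes in each line, the difference of the changes was called for 5 of the 10 genes, larger in the pESC line for Bmp4 and Id3 and smaller for Id4, Smad7 and Msx1, beside 19.1% of all genes. In both Bmp4 and Id3, pESCs lay below ESCs and pESC-PGCLCs above ESC-PGCLCs, an order that Bambi shared without a call. Of all genes, 31.3% were lower in pESCs than in ESCs without overlap and 11.7% higher. Id4, Smad7 and Msx1 shared the opposite order of their PGCLCs, as did Id1, Id2 and Msx2 without a call there. None of Id4, Smad7 and Msx1 was called between pESCs and ESCs.

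Against PGCs, Bmp4 was the only gene called in ESC-PGCLCs (1.16 ± 0.238 higher in PGCs on the log2 scale, adjusted p = 0.00976, limma), beside 13.8% of all genes called, 12% higher and 1.88% lower in PGCs. The call is lost without ESC-PGCLC replicate 1 (adjusted p = 0.0511) or PGC replicate 1 (adjusted p = 0.0552), and with quantile normalization the value was 0.58. It is also lost with a pseudocount of 0.1 (adjusted p = 0.0676), with centring on the median gene (0.56) and with these 2 groups fitted alone (adjusted p = 0.0657). Id3 and Bambi passed the adjusted p (0.0388 and 0.0078, limma) but were under 2-fold, at 0.75 and 0.84. The median of the 10 genes was 0.203, beside 0.268 for all genes. The libraries of 4 genes (Bmp4, Id3, Smad6 and Bambi) were higher in PGCs without overlap and those of 0 lower, as for 50% and 10% of all genes.

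In PGCs against pESC-PGCLCs the median of the 10 was 0.564, beside 0.11, and Msx1 was the only gene called (1.17 ± 0.160 higher in PGCs, adjusted p = 0.0134, limma), beside 3.67% of all genes called, 2.07% higher and 1.6% lower. Without pESC-PGCLC replicate 1, pESC-PGCLC replicate 2 or PGC replicate 1 its adjusted p was 0.0793, 0.103 and 0.0533. With these 2 groups fitted alone it was 0.12, and with centring the value was 0.98. Id4 passed the adjusted p (0.0228, limma) at 0.95, under 2-fold. The libraries of 8 genes, all but Id2 and Id3, were higher in PGCs without overlap and those of 0 lower, as for 37.4% and 16.6% of all genes. Both comparisons share the PGC libraries, and in all 10 genes PGC replicate 1 was above PGC replicate 2.

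The counts for the other genes of the pathway stand beside 15.3% of all genes called higher and 14.5% lower in the ESC line, and 20.8% and 6.8% in the pESC line. Of 10 receptor and co-receptor genes, 6 were called higher, 0 lower and 4 not called in PGCLCs of each line. Those called were the same in both, namely Bmpr1a, Bmpr2, Acvr1, Acvr2a, Acvr2b and Rgmb. The median change of all 10 was 1.27 in the ESC line and 1.28 in the pESC line. Bmpr1a, the type I receptor of BMP4, was at 7.38 and 8.91 TPM in ESCs and 4.93 and 8.66 in pESCs. It was at 43.3 and 45.03 TPM in ESC-PGCLCs, 44.9 and 42.3 in pESC-PGCLCs, and 68.6 and 66.9 in PGCs. The 2 kinds of PGCLCs overlapped and PGCs were above both. Its change was 2.31 ± 0.222 in the ESC line (adjusted p = 8.97e-05, limma) and 2.56 ± 0.222 in the pESC line (adjusted p = 7.61e-05, limma). Bmpr2 fell under 2-fold without ESC replicate 1 (0.99) or ESC-PGCLC replicate 1 (1.00) in the ESC line and without pESC replicate 1 (0.86) or pESC-PGCLC replicate 2 (0.99) in the pESC line. With centring on the median gene, Bmpr2, Acvr1 and Acvr2a were at 0.30, 0.81 and 0.85 in the pESC line, in the same direction.

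Of the SMADs that carry the signal, 3 of 4 were called higher in the ESC line (Smad4, Smad5 and Smad9) and 2 of 4 in the pESC line (Smad4 and Smad5). Smad9 passed the filter on low values through the groups where it was high. Smad4, the common partner, had means of 10.7 TPM in ESCs, 8.40 in pESCs, 32.4 in ESC-PGCLCs, 27.1 in pESC-PGCLCs and 37.5 in PGCs. In the ESC line the calls of Smad5 and Smad9 were lost without ESC replicate 2 (0.96 and 0.99) or ESC-PGCLC replicate 2 (0.99 and 0.97), and that of Smad5 also with quantile normalization (0.97). In the pESC line both calls were lost with centring on the median gene (0.91 for Smad4 and 0.97 for Smad5). Smad1 had means of 1.53 to 3.19 TPM and was called in 0 comparisons.

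Among the other BMP ligands, 8 of 12 listed genes were tested. Bmp2, a close relative of Bmp4, had 1 read in all over the ESC libraries and 1 over the pESC libraries, and was at 4.20 and 3.52 TPM in ESC-PGCLCs, 4.33 and 3.38 in pESC-PGCLCs, and 10.9 and 5.64 in PGCs. Its depth-scaled read ratio was 292 in the ESC line (51.4 to 11612) and 238 in the pESC line (42.2 to 9423), with fitted log2 changes of 2.26 and 2.25. Like Msx1, Bmp2 passed the filter on low values through the groups where it was high. Bmp8b, which also takes part in germ cell specification, went the other way in the ESC line. It was at 7.08 and 4.81 TPM in ESCs and 4.11 and 3.92 in pESCs, and at 0.704 and 0.633 in ESC-PGCLCs against 6.39 and 6.16 in pESC-PGCLCs, with 1.74 and 1.85 in PGCs. ESC-PGCLCs and PGCs thus lay below all stem cell libraries, while pESC-PGCLCs did not. Bmp8b fell by 2.04 ± 0.189 from ESCs to ESC-PGCLCs (adjusted p = 7.57e-05, limma) and was higher in pESC-PGCLCs than in ESC-PGCLCs by 2.12 ± 0.189 (adjusted p = 0.0003, limma). The changes in the 2 lines differed by 2.58 ± 0.268 (adjusted p = 0.000723, limma), and these 3 calls held under every alternative. A further call of Bmp8b, for PGCs against pESC-PGCLCs (-1.38, lower in PGCs), is lost in a fit of those 2 groups alone (adjusted p = 0.12, limma). Its close paralog Bmp8a had at most 11 reads in any library, and how reads matching both were counted is not given in the sources used here. Bmp7 was called higher in pESC-PGCLCs than in pESCs (1.11) and in PGCs than in ESC-PGCLCs (1.47), with values of 0.58 and 0.88 under quantile normalization.

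**Figure D4:**
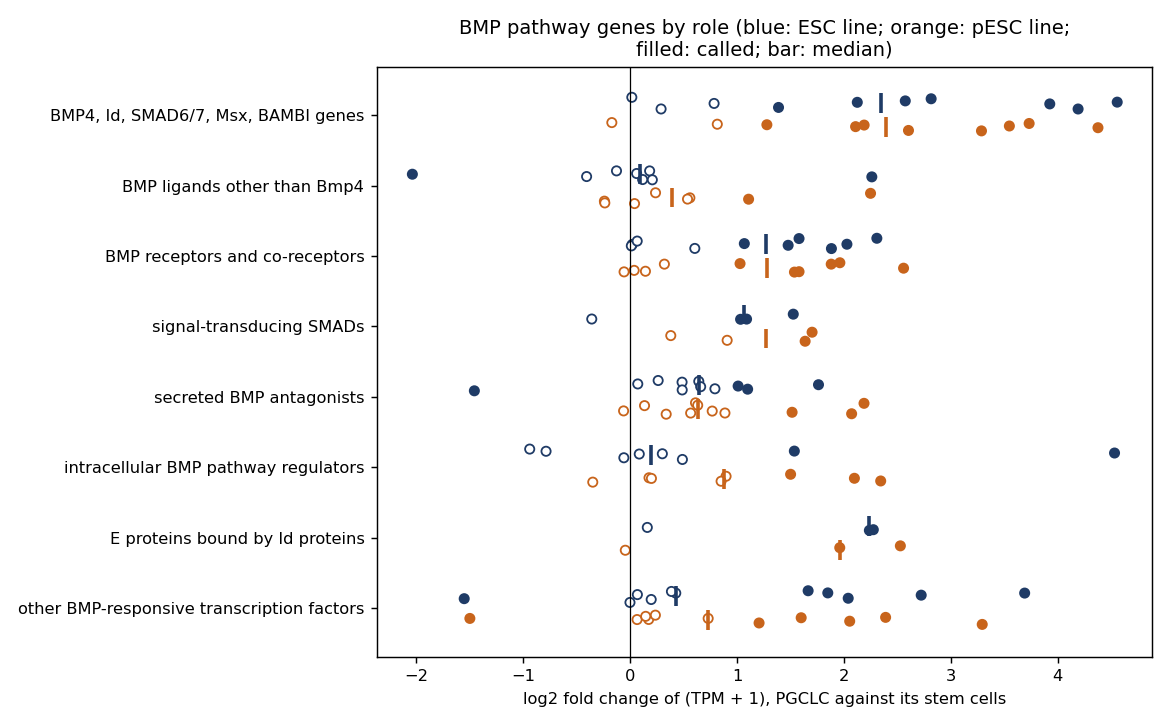
Change in log2(TPM + 1) from stem cells to PGCLCs for the 10 genes and for 7 other lists of BMP pathway genes by role, with 1 point per gene, blue for the ESC line, orange for the pESC line, filled points for called genes and a bar at each median. The 10 genes have medians of 2.35 and 2.40, the receptors 1.27 and 1.28, and the other ligands 0.0884 and 0.387.

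Extracellular antagonists and intracellular regulators were mixed. Of 11 tested antagonists, 3 were called higher (Nog, Twsg1 and Sostdc1) and 1 lower (Fstl1) in the ESC line. In the pESC line 3 were called higher (Fst, Twsg1 and Sostdc1) and 0 lower. Twsg1 rose by 1.76 in the ESC line and by 1.515 in the pESC line. The latter change was 0.87 with quantile normalization and 0.78 with centring, both under 2-fold. Nog and Sostdc1, which are among those called higher, passed the filter on low values through the groups where they were high. Fst, which encodes the activin- and BMP-binding follistatin, was at 3.86 and 5.44 TPM in ESCs, 2.29 and 3.11 in pESCs, 8.16 and 9.25 in ESC-PGCLCs, 14.9 and 14.02 in pESC-PGCLCs, and 37.2 and 27.1 in PGCs. It was called higher in pESC-PGCLCs than in pESCs (2.07) and in PGCs than in ESC-PGCLCs (1.76, a call that is lost in a fit of those 2 groups alone). Fst was also called higher in PGCs than in pESC-PGCLCs (1.08) and for the difference between the lines (1.28). These 2 calls are lost with quantile normalization (0.999 and 0.73) and with centring (0.89 and 0.53). Fstl1, a gene related to follistatin, fell by 1.46 in the ESC line, from a mean of 23.0 to 7.76 TPM. Of 8 intracellular regulators, 2 were called higher in the ESC line (Skil and Smurf2) and 3 in the pESC line (Skil, Smurf2 and Ski). The call of Ski (1.501) was lost with quantile normalization (0.91) and with centring (0.77). In PGCs against ESC-PGCLCs, 4 of these regulators were called higher (Smurf2, Ski, Ctdsp1 and Ctdsp2) and 1 lower (Skil), beside 12% and 1.88% of all genes. Each of these calls is lost in a fit of those 2 groups alone. Ctdsp2 was also called for the difference between the lines (1.14), at 0.57 with quantile normalization. Ppm1a, at means of 5.50 to 10.2 TPM, was called in 0 comparisons.

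Skil encodes SnoN, a repressor of SMAD complexes that is itself induced by TGF-β family signals. It was at 9.72 and 7.76 TPM in ESCs, 15.3 and 20.5 in pESCs, 215 and 232 in ESC-PGCLCs, 82.6 and 107 in pESC-PGCLCs, and 48.3 and 71.9 in PGCs. No 2 groups overlapped. The rise was 4.53 ± 0.240 on the log2 scale in the ESC line (adjusted p = 6.02e-06, limma) and 2.34 ± 0.240 in the pESC line (adjusted p = 0.000157, limma), and the changes differed by -2.19 ± 0.339 (adjusted p = 0.00327, limma). Skil was thus lower in pESC-PGCLCs than in ESC-PGCLCs, as Smad7 was, by 1.24 (adjusted p = 0.00803, limma), a call that is lost without ESC-PGCLC replicate 2 (-1.18, adjusted p = 0.0547) or pESC-PGCLC replicate 1 (-1.06, adjusted p = 0.0655).

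Of 11 other tested transcription factors that respond to BMP, 5 were called higher and 1 lower in PGCLCs of each line. The 5 were Gata2, Gata3, Hey1, Dlx3 and Prdm1 in both. Gata2 and Dlx3 passed the filter on low values through the groups where they were high. The call of Gata3 in the pESC line (1.21) was lost with quantile normalization (0.94) and with centring on the median gene (0.48, adjusted p = 0.124, limma). Gata2, a factor of blood and trophoblast, was at 0.0804 and 0.0935 TPM in ESCs and 0.0422 and 0.171 in pESCs. It was at 12.6 and 13.5 TPM in ESC-PGCLCs, 10.1 and 9.61 in pESC-PGCLCs, and 28.1 and 22.9 in PGCs (log2 changes 3.69 and 3.29 in the 2 lines). Blood markers were also higher in these groups, as given above, and their part in the Gata2 values was not tested. Prdm1, a repressor required for the germ line, rose by 2.04 in the ESC line and 1.60 in the pESC line, the latter at 0.95 with quantile normalization and 0.87 with centring on the median gene, both under 2-fold. Tbx3, which is also a naive pluripotency gene, fell by 1.55 and 1.5.

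The genes whose levels followed those of Bmp4 most closely over the 10 libraries, among 8815 compared, were Tex10 (Pearson's r = 0.994), Prkar1a (0.993) and Pank2 (0.993). They shared the low level in pESCs, with Tex10 at 16.9 and 24.7 TPM there against 36.5 and 33.6 in ESCs and 93.0 and 94.2 in PGCs. Those most like Id1 were Lactb (0.997), Rnf227 (0.997) and Bbx (0.996), with Lactb at 2.07 to 2.52 TPM in the stem cells and 22.6 to 33.2 in the other groups. These values describe 5 groups of 2 libraries, which share their group means.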

How the data were processed

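Reads were aligned by the authors to mm10 with Hisat2 and counted on genes with Feature-counts, and the authors compared groups with DESeq2. The submitters' processing notes also name Bowtie2 and RSEM. The strand setting of the counting is not given in the sources used here. The authors deposited TPM for 36066 genes, without further normalization. The labels and the study's methods name different library kits. The 10 genes and all lists were chosen with earlier results of these data known.

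Values were taken as log2(TPM + 1), and genes reaching 0.1 TPM in 2 or more libraries were tested in R 4.3.3 with limma 3.58.1, as 1 mean per group over all 10 libraries (5 residual and 2.81 prior degrees of freedom, trended variances). The 2 stem cell groups were compared, as were the 2 kinds of PGCLCs, PGCLCs against their stem cells, PGCs against each kind of PGCLCs, and the difference of the changes in the 2 lines. The deposited TPM multiplied by GENCODE M21 exon length gave whole reads within 0.02 for 95.0% to 95.5% of values. Counting intervals are exact at 95% and cover counting error only. The alternatives were a pseudocount of 0.1, no filter, the compared groups alone, quantile normalization, centring on genes that all libraries hold at 1 TPM or more, replicate number as a block, and leaving out each library. voom on recovered reads was added after seeing the data. The fit was also run on simulated data with a common spread for all genes and changes only between the 2 kinds of PGCLCs. That setting is simpler than these data, so the run does not bear on the calls here. Members were always named. Other pathway genes were named when called with a mean of at least 1 TPM or when highest of their list, and those most like Bmp4 and Id1 were the 3 with the highest r among genes with at least 10 TPM in a library. Gene positions are from GENCODE M21 (GRCm38). Over stretches of 100 bases, 0% of the transcript sequence of the 10 genes occurs in another gene. Python 3.11.15 and pandas 2.3.3 made the tables, matplotlib 3.10.9 the figures.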

Additional observations from a re-analysis of the deposited data

Results flagged for a closer look

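Of the 10 genes, 5 are listed because the test of the difference itself (the change from pESCs to pESC-PGCLCs minus the change from ESCs to ESC-PGCLCs, limma) passed the threshold. The difference was 1.82 for Bmp4 and 2.998 for Id3, both with the larger change in the pESC line. It was -1.30 for Id4, -1.56 for Smad7 and -1.01 for Msx1, all 3 with the larger change in the ESC line. In these terms 19.1% of all tested genes were called.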

How the results depend on the processing

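Of the 26 calls of the 10 genes, 18 held under every alternative and 0 turned direction, and 411 of 442 recomputed values stayed past the threshold. Calls of the other listed pathway genes were less stable: 37 of 71 held under every alternative. Quantile normalization lost 22 of these 71 and centring on the median gene 23. With each library left out in turn, the number of the 10 genes called was 0 to 2 in pESCs against ESCs, 0 to 3 in PGCs against each kind of PGCLCs, and 3 to 5 for the difference between the lines (all genes: 30 to 953, 2818 to 4776 against ESC-PGCLCs, 34 to 1966 against pESC-PGCLCs, and 3305 to 5524). It was 7 in the ESC line, 8 in the pESC line and 2 to 3 between the PGCLCs. The compared groups fitted alone with limma left 0 genes called, 0 of them among the 10, in pESCs against ESCs, PGCs against ESC-PGCLCs and PGCs against pESC-PGCLCs, where 4276, 9328 and 6687 genes had an unadjusted p under 0.05 and voom called 513, 4748 and 2015. In pESCs against ESCs, 213 genes were called, 134 without the filter and 122 with quantile normalization. In PGCs against ESC-PGCLCs, 3772 genes were called and 1904 with quantile normalization, and a pseudocount of 0.1 gave 6140 genes but 0 of the 10. In PGCs against pESC-PGCLCs, 1000 genes were called and 631 without the filter, and centring on the median gene left 0 of the 10. With replicate number as a block, the number of the 10 genes called was 1, 3, 7, 8, 1, 1 and 5, the same as without it, and pESCs against ESCs had 78 genes called in place of 213. Deviations of same-numbered libraries correlated at -0.0936 to 0.347 over the pairs of groups, above 0.1 between ESCs and pESCs (0.124), ESCs and PGCs (0.142) and pESCs and PGCs (0.347) and not between the others, so a pairing of the samples by number was not established. Depth limits the stem cell values of Msx1, Msx2, Bmp2, Gata2, Gata3, Smad9, Dlx3, Nog and Sostdc1, which rest on at most 8 reads a library. Hey1 had 10 and 10 reads in ESCs and 3 and 5 in pESCs.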
